A study of Mus musculus with 8 samples.

Results

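Collagens, laminins, integrins, fibronectin and the glycoproteins that link them were measured in neurospheres of mouse neural stem cells (NSCs). The set was defined by gene symbol and held every collagen chain (Col), laminin chain (Lama, Lamb, Lamc) and integrin subunit (Itga, Itgb) on the array, together with Fn1, Tnc, Efemp1, Nid1, Nid2, Hspg2 and Vcan. These were 84 of the 18194 genes that had a probe set annotated to that gene alone, and each gene was read at the probe set with the highest mean signal over the 8 arrays. The rule that picked the probe set used this mean alone, but the set of genes was drawn up with earlier results of these data known.

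Affymetrix 3' arrays were hybridised with total RNA of secondary neurospheres, which are floating spheres grown from dissociated primary ones. There were 4 groups of 2 arrays, from 2 independent experiments each: MHM + GF for 3 days, MHM + GF for 7 days, rcCHIL3 for 3 days and rcCHIL3 for 7 days. MHM + GF is, in the methods, a serum-free medium with the growth factors EGF and FGF-2. The sample labels call it MHM, without ECF-L, and name no growth factor, so whether the control arrays had EGF and FGF-2 rests on the methods alone. rcCHIL3 is recombinant CHIL3, a secreted chitinase-like protein also called ECF-L or Ym1, given as MHM conditioned by HEK293T cells (a human embryonic kidney line) that expressed it. All spheres came from striatal cells first expanded with EGF and FGF-2. The series describes the donors as adult mice, whereas the methods name both embryonic and adult striatum. According to the methods no growth factor was added to rcCHIL3, so CHIL3, other proteins from the HEK293T cells and the absence of added EGF and FGF-2 cannot be told apart in the comparison with MHM + GF. Neurospheres are mixtures of stem cells, progenitors and their progeny, and in such bulk RNA fewer cells of a type and less RNA per cell cannot be told apart.

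Collagens assemble as trimers into triple helices, which form fibrils or, with type IV, the network of basement membranes. Laminins are heterotrimers of an alpha, a beta and a gamma chain, joined to that network by nidogens and perlecan. Cells hold on to these proteins and to fibronectin through integrins, each a pair of an alpha and a beta subunit that carries signals to the cytoskeleton. In the germinal zones of the brain the matrix is rich in tenascin-C and versican, and NSCs contact laminin-containing basement membranes of vessels through integrins that contain alpha 6 and beta 1.

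Signals are linear intensities scaled to a mean of 100 on each array. A gene counted as measured when its signal reached 50 on at least 2 of the 8 arrays, and 30.1% to 31.5% of probe sets lay at or over 50 on an array. Differences were tested with limma on log2(signal + 20), which understates the change of low genes, with Benjamini-Hochberg adjustment over the 15679 probe sets kept and a threshold of 0.05. Replicate arrays correlated at 0.992 to 0.994. The summed signal of 9 NSC and progenitor markers was 9848 to 10098 and 9643 to 9710 in MHM + GF at 3 and 7 days, and 7780 to 8079 and 8575 to 8618 in rcCHIL3. None of 8 endothelial and none of 8 microglial markers was measured, and 7 of each list never exceeded a signal of 20. Of 8 mural cell markers 4 were measured, with summed signals of 488 to 509 and 636 to 690 in MHM + GF at 3 and 7 days, and 399 to 417 and 261 to 262 in rcCHIL3. Of 8 fibroblast and meningeal markers 3 were measured, and the defining ones Dcn, Lum, Dpt, Twist1 and Foxc1 never exceeded 20. Astrocyte markers summed to 3557 to 3644 and 5805 to 5811 in MHM + GF at 3 and 7 days, and to 4879 to 5105 and 6100 to 6140 in rcCHIL3.

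Of the 84 genes, 26 were measured and 58 lay under the filter. At 3 days 9 of the 26 were higher and 13 lower with rcCHIL3 than with MHM + GF, so that 22 passed the test and 4 did not. Over all probe sets 50.2% passed, 27.7% as higher and 22.5% as lower. At 7 days 19 of the 26 passed, 9 higher and 10 lower, against 44.0% of all probe sets (21.3% and 22.7%), and at the deposited scale 11 were higher and 6 lower. The members' median difference was -0.29 on the log2 scale at 3 days and 0.11 at 7 days, beside 0.03 and -0.01 over all probe sets. These counts are descriptive, since each gene was read at its brightest probe set and 3 genes reached 50 on both arrays of a single group (Col11a1 and Col18a1 in MHM + GF at 3 days, Col11a2 in rcCHIL3 at 3 days). Col20a1 reached 50 in the 2 rcCHIL3 groups and in neither MHM + GF group.

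**Figure D1:**
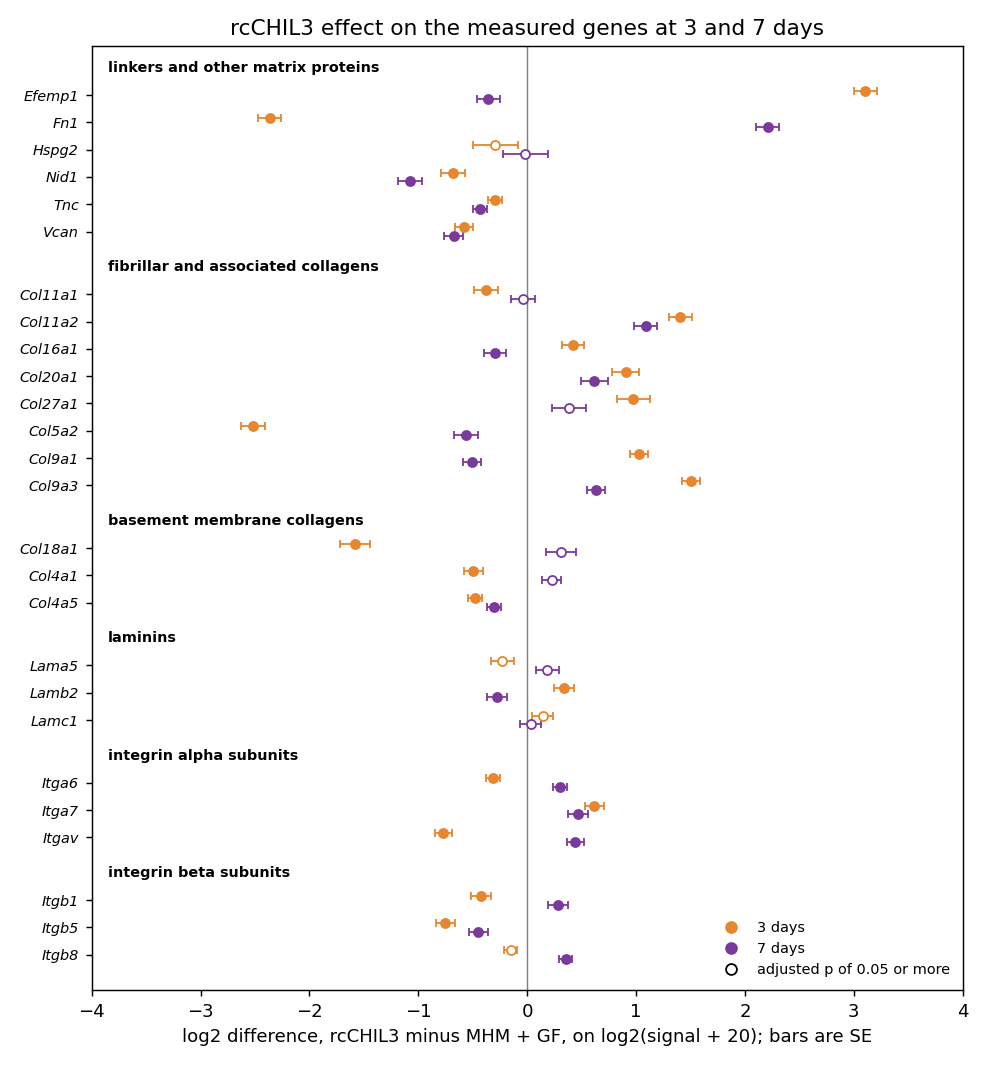
Difference between rcCHIL3 and MHM + GF at 3 days (orange) and 7 days (purple) for the 26 measured genes, on the log2(signal + 20) scale. Points are the estimates, each from 2 arrays per group, and bars their standard errors from the fit of all 8 arrays. Open points did not pass the test. Fn1 lies at -2.37 at 3 days and 2.21 at 7 days, and Efemp1 at 3.10 and -0.36.

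Among the genes that passed the test at both days, the direction differed between the days for 8. The share of all probe sets with such opposite calls was not counted. Col4a1, Col18a1, Itgb8 and Lama5 also changed sign between the days but did not pass at both. Fn1, Itga6, Itgav and Itgb1 were lower with rcCHIL3 at 3 days and higher at 7 days, and Efemp1, Col9a1, Col16a1 and Lamb2 were higher at 3 days and lower at 7 days. Col5a2, Col4a5, Itgb5, Nid1, Tnc and Vcan were lower at both days, and Col9a3, Col11a2, Col20a1 and Itga7 higher at both.

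Fibronectin is a glycoprotein that binds collagen, heparan sulphate and several integrins. The Fn1 signal was 194 and 191 in MHM + GF at 3 days, 63.9 and 62.8 at 7 days, 26.4 and 16.7 in rcCHIL3 at 3 days, and 355 and 375 at 7 days. It was lowest in rcCHIL3 at 3 days and highest in rcCHIL3 at 7 days, and no groups overlapped. On the log2 scale rcCHIL3 differed from MHM + GF by -2.37 ± 0.11 (SE) at 3 days (adjusted p = 1.32e-08) and by 2.21 ± 0.11 at 7 days (adjusted p = 7.28e-08). Fn1 fell by 1.35 with time in MHM + GF and rose by 3.22 in rcCHIL3, and the rcCHIL3 effect changed by 4.57 ± 0.15 between the days (adjusted p = 6.04e-09). This was the largest such change among the 26 genes. The 8 fibroblast and meningeal markers summed to 406 to 481 and 378 to 472 in MHM + GF at 3 and 7 days, and to 484 to 497 and 515 to 546 in rcCHIL3. Only 3 of the 8 were measured, and Dcn, Lum, Dpt, Twist1 and Foxc1 never exceeded a signal of 20. With rcCHIL3 1 of the 3 was higher and 1 lower at 3 days, and 1 was higher and 2 did not pass at 7 days. Mgp, picked from the list after its values were seen, had signals of 69.2 and 82.9 in rcCHIL3 at 7 days and at most 5.80 in the other groups. It was thus kept through rcCHIL3 at 7 days alone, and the filter favoured a higher value there. The part of such cells in the Fn1 result was not tested.

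Efemp1 encodes fibulin-3, a secreted glycoprotein of the fibulin family that binds basement membrane and elastic fibre components. Its signal was 15.0 and 24.6 in MHM + GF at 3 days, 580.3 and 599.6 at 7 days, 305 and 336 in rcCHIL3 at 3 days, and 474 and 440.0 at 7 days. Efemp1 was near the floor in MHM + GF at 3 days alone, and the highest signals were those of MHM + GF at 7 days. The difference between rcCHIL3 and MHM + GF was 3.10 ± 0.11 at 3 days (adjusted p = 1.67e-09) and -0.36 ± 0.11 at 7 days (adjusted p = 0.0185). Efemp1 rose by 3.95 with time in MHM + GF and by 0.49 in rcCHIL3. The lower level at 7 days no longer passed the test without replicate 2 of MHM + GF or of rcCHIL3 at 7 days (adjusted p = 0.0793 and 0.11), or at the deposited scale (0.154). The astrocyte and mural marker sums of MHM + GF were also higher at 7 than at 3 days. At 3 days the astrocyte sum was higher with rcCHIL3 than with MHM + GF (4879 to 5105 against 3557 to 3644), and the mural sum was lower. Within the lists the directions were mixed. With time in MHM + GF 3 of 6 measured astrocyte markers rose and 1 fell, and 2 of 4 mural markers rose and 2 fell. With rcCHIL3 at 3 days 3 astrocyte markers were higher and 2 lower, and 2 mural markers were higher and 1 lower. The markers of oligodendrocytes (4 of 6 measured) summed to 1613 to 1639 and 3301 to 3414 in MHM + GF at 3 and 7 days, and to 3394 to 3415 and 4154 to 4387 in rcCHIL3. All 4 were higher with rcCHIL3 at 3 days (median difference 1.19) and all 4 rose with time in MHM + GF (1.79). The part of these cell types in the Efemp1 result was not tested.

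Tenascin-C and versican are the large matrix molecules of the germinal zones, the former a hexameric glycoprotein and the latter a chondroitin sulphate proteoglycan that binds hyaluronan. The Tnc signal was 823 and 876 in MHM + GF at 3 days, 253 and 247 at 7 days, 684 and 691 in rcCHIL3 at 3 days, and 185 and 176 at 7 days. The Vcan signal was 414 and 425, then 140.2 and 154, in MHM + GF at 3 and 7 days, and 279 and 269, then 91.3 and 78.2, in rcCHIL3. Both genes had their highest level in MHM + GF at 3 days and their lowest in rcCHIL3 at 7 days, with no overlap between groups. With time Tnc fell by 1.69 ± 0.07 in MHM + GF and fell by 1.82 ± 0.07 in rcCHIL3. Vcan fell by 1.40 ± 0.08 and fell by 1.49 ± 0.08. These were the largest falls with time among the 26 genes in either medium, although in MHM + GF Col5a2 (-1.38) and Fn1 (-1.35) lay within 1 SE of Vcan. The effect of rcCHIL3 was smaller: Tnc differed by -0.30 at 3 days and -0.43 at 7 days (adjusted p = 0.00269 and 0.000332), and Vcan by -0.58 and -0.68 (adjusted p = 0.00015 and 8.33e-05). The change of this effect between the days did not pass the test for Tnc (-0.13 ± 0.09) or for Vcan (-0.10 ± 0.12).

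Nidogen-1 bridges laminin and type IV collagen. The Nid1 signal was 98.5 and 85.3 in MHM + GF at 3 days, 138 and 155 at 7 days, 48.5 and 51.0 in rcCHIL3 at 3 days, and 52.8 and 65.3 at 7 days. All 4 rcCHIL3 arrays lay under all 4 MHM + GF arrays. Nid1 was lower with rcCHIL3 by 0.68 ± 0.11 on the log2 scale at 3 days (adjusted p = 0.000308) and by 1.08 ± 0.11 at 7 days (adjusted p = 1.82e-05). It rose with time in MHM + GF (0.57), and the change in rcCHIL3 was 0.18 (adjusted p = 0.23). The mural marker sum was lower with rcCHIL3 at both days. Of the 4 measured mural markers, however, 2 were higher and 1 lower at 3 days, and 3 were lower at 7 days. The part of mural cells in this result was not tested. Nid2, the second nidogen, was under the filter, with signals of 36.1 and 34.9 in rcCHIL3 at 7 days and at most 23.8 elsewhere. In a fit without the filter, Nid2 was higher with rcCHIL3 at 7 days by 0.47 ± 0.12 (adjusted p = 0.0304). Hspg2 encodes perlecan, the heparan sulphate proteoglycan of basement membranes. Its replicates differed widely, with 86.1 and 48.0 in MHM + GF at 3 days and 85.1 and 52.0 at 7 days, against 46.2 and 52.8, then 75.1 and 57.8, in rcCHIL3. No comparison of Hspg2 passed the test, and the differences were -0.29 ± 0.21 at 3 days and -0.02 ± 0.21 at 7 days. Without replicate 2 of MHM + GF at 3 days the difference at 3 days was -0.61 (adjusted p = 0.0352).

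**Figure D2:**
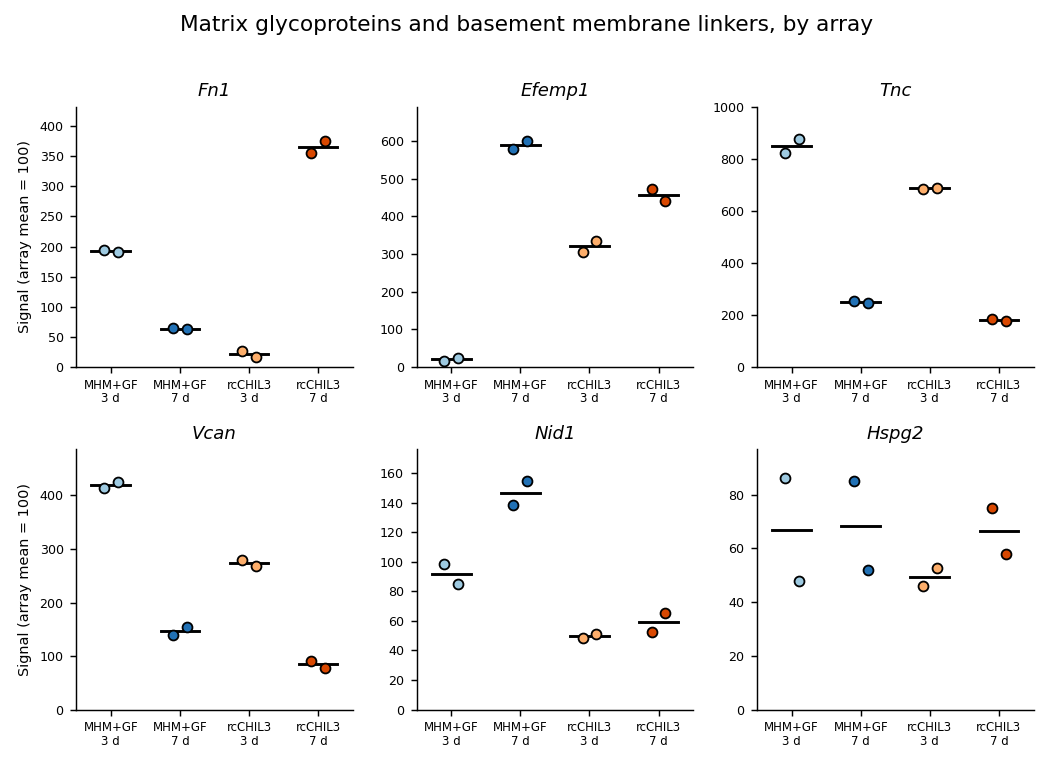
Signal on each array (mean of the array = 100, linear axes from 0) of 6 matrix glycoproteins and basement membrane linkers in the 4 groups. Points are single arrays, 2 in each group, and lines are group means. Fn1 is highest in rcCHIL3 at 7 days, Efemp1 is near 0 in MHM + GF at 3 days alone, and Tnc and Vcan are lower at 7 days in both media.

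For the matrix genes Tnc, Efemp1 and Nid1, which passed the test at both days, the sequence before the annotated gene start is given from the RefSeq table (GRCm38.p6), 5′ to 3′ on the gene's strand. Windows that reach into the gene are not shown. Capitals mark matches to TATAAA (the TATA box) or GGGCGG (the GC box bound by Sp factors).
Tnc, chr4:64047016-64047265, minus strand: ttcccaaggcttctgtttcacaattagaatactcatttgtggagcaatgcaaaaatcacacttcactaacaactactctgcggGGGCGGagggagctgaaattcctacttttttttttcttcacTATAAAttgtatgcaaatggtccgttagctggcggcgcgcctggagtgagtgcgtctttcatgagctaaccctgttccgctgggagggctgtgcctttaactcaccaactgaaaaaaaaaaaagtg
Efemp1, chr11:28852955-28853153, plus strand: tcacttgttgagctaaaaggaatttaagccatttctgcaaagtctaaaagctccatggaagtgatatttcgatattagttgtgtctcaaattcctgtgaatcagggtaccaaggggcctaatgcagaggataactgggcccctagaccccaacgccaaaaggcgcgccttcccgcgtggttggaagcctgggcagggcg
Nid1, chr13:13437352-13437601, plus strand: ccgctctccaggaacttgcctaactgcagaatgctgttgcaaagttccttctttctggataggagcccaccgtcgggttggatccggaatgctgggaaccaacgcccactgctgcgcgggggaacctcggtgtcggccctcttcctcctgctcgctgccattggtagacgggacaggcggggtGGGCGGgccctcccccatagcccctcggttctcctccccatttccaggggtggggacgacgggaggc
The Tnc sequence held TATAAA and GGGCGG, the Nid1 sequence GGGCGG, and the Efemp1 sequence neither, with no match overlapping another. The AP-1 motif TGAGTCA was in none of them. On either strand TATAAA was in 12.4%, GGGCGG in 32.7% and TGAGTCA in 4.46% of the 32851 windows of 250 bases in the table. The table held a window for 61 of the 84 genes, and the Efemp1 sequence was 199 bases long.

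Among 20 fibrillar and fibril-associated collagen chains 8 were measured, and at 3 days 6 of these were higher and 2 lower with rcCHIL3, where 27.7% and 22.5% of all probe sets were. Among the 6, Col11a2 and Col20a1 were over the filter through rcCHIL3 alone. The largest fall was that of Col5a2, a chain of type V collagen, which regulates the diameter of collagen fibrils. Its signal was 300.3 and 299 in MHM + GF at 3 days, 104 and 103 at 7 days, 35.4 and 36.3 in rcCHIL3 at 3 days, and 74.4 and 54.1 at 7 days. The groups did not overlap, and MHM + GF was above rcCHIL3 at both days. Col5a2 was lower with rcCHIL3 by 2.52 ± 0.11 at 3 days and by 0.56 ± 0.11 at 7 days (adjusted p = 9e-09 and 0.00189). It fell by 1.38 with time in MHM + GF and rose by 0.58 in rcCHIL3. A second probe set of Col5a2 gave the same call in every one of the 5 comparisons.

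At 3 days the cartilage-type collagen chains Col9a1, Col9a3 and Col11a2 were higher with rcCHIL3. Col11a1 was lower, as was Col2a1 in a fit without the filter. Col11a2 reached 50 on both arrays of rcCHIL3 at 3 days alone, and Col11a1 on both arrays of MHM + GF at 3 days alone. The filter thus favoured opposite directions for Col11a1 and Col11a2 at 3 days. Col9a1 and Col9a3 encode chains of type IX collagen, which sits on the surface of type II fibrils, and Col11a2 a chain of type XI collagen, which lies within them. Col9a3 had signals of 188 and 222 in MHM + GF at 3 days, 372 and 413 at 7 days, 617 and 615 in rcCHIL3 at 3 days, and 624 and 613 at 7 days. The 4 rcCHIL3 arrays were alike and above every MHM + GF array, with differences of 1.50 ± 0.08 at 3 days and 0.63 ± 0.08 at 7 days (adjusted p = 5.34e-08 and 0.000111). The rise with time passed the test in MHM + GF (0.88), and the change in rcCHIL3 was 0.01 ± 0.08. Col9a1 had signals of 103 and 92.2, then 179.7 and 184, in MHM + GF at 3 and 7 days, and 226 and 213, then 123 and 121, in rcCHIL3. It rose with time in MHM + GF and fell in rcCHIL3, so that the rcCHIL3 arrays were above MHM + GF at 3 days (1.03 ± 0.08, adjusted p = 1.17e-06) and below at 7 days (-0.51 ± 0.08, adjusted p = 0.0005). Col9a2, the remaining type IX chain, never exceeded a signal of 19.3. In a fit without the filter it was lower with rcCHIL3 at 7 days (-0.81 ± 0.14, adjusted p = 0.00578).

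Col11a2 had signals of 12.3, 8.11, 8.35 and 7.79 on the MHM + GF arrays, 58.5 and 61.2 in rcCHIL3 at 3 days, and 41.1 and 38.4 at 7 days. It was near the floor in MHM + GF at both days. The differences were 1.41 ± 0.10 at 3 days and 1.09 ± 0.10 at 7 days (adjusted p = 6.8e-07 and 1.2e-05), and it passed the filter through rcCHIL3 at 3 days alone. The main chain of cartilage fibrils, Col2a1, was under the filter and never exceeded 22.7. Without the filter it was lower with rcCHIL3 at 3 days (-0.50 ± 0.12, adjusted p = 0.0204). The remaining measured chains, named after their values were seen, were Col11a1, Col16a1, Col20a1 and Col27a1. Col20a1 was higher with rcCHIL3 at 3 and 7 days (0.91 and 0.62), with signals of 21.1 to 34.3 on the MHM + GF arrays. It was kept through rcCHIL3 alone, so the filter favoured a higher value there. Col27a1 was higher at 3 days (0.98, then 0.38 with adjusted p = 0.0651), but its second probe set gave 0.26 there and did not pass (adjusted p = 0.102). Col16a1 was higher at 3 days (0.42, adjusted p = 0.00432) and lower at 7 days (-0.30, adjusted p = 0.0319), where the call was lost without replicate 1 of MHM + GF or without either rcCHIL3 array (adjusted p = 0.157, 0.0539 and 0.153). Col11a1 was lower at 3 days (-0.38, adjusted p = 0.016), and this call was lost without either MHM + GF array or without replicate 2 of rcCHIL3 (adjusted p = 0.0583, 0.0594 and 0.162).

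Of 9 basement membrane collagen chains 3 were measured, and all of these were lower with rcCHIL3 at 3 days, where 22.5% of all probe sets were. In a fit without the filter Col4a6 was lower too (-0.64, adjusted p = 0.00799), and the other chains under the filter did not pass. Col18a1 encodes the collagen XVIII chain, a proteoglycan of basement membranes whose C-terminal fragment is endostatin. Its signal was 74.7 and 72.6 in MHM + GF at 3 days, 17.2 and 20.9 at 7 days, 6.69 and 16.6 in rcCHIL3 at 3 days, and 29.5 and 27.3 at 7 days. MHM + GF at 3 days stood alone above the other 3 groups, and it was the only group that carried Col18a1 over the filter. The filter thus favoured a lower value with rcCHIL3 at 3 days and a fall with time in MHM + GF. The difference was -1.58 ± 0.14 at 3 days (adjusted p = 2.51e-06) and 0.31 ± 0.14 at 7 days (adjusted p = 0.0888). The effect changed by 1.89 between the days.

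Col4a1 and Col4a5 encode type IV collagen chains, the first of the widespread network and the second of a more restricted one. The Col4a1 signal was 117 and 115 in MHM + GF at 3 days, 84.8 and 88.1 at 7 days, 73.1 and 79.6 in rcCHIL3 at 3 days, and 103 and 107 at 7 days. It fell with time in MHM + GF (-0.35) and rose in rcCHIL3 (0.37), the latter with an adjusted p of 0.0542 when replicate 1 of rcCHIL3 at 3 days was left out. The difference between media was -0.50 ± 0.09 at 3 days (adjusted p = 0.000551) and 0.23 ± 0.09 at 7 days (adjusted p = 0.0514). Col4a5 had signals of 567 and 584, then 792 and 865, in MHM + GF and 421 and 394, then 657 and 677, in rcCHIL3. It rose with time in both media (0.51 and 0.68) and was lower with rcCHIL3 at both days (-0.48 and -0.30, adjusted p = 0.000115 and 0.00369). At the deposited scale the difference at 7 days did not pass (-0.21, adjusted p = 0.176). Nor did it pass at the second probe set of Col4a5 (-0.13, adjusted p = 0.307).

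Of 10 laminin chains, Lama5, Lamb2 and Lamc1 were measured, which can form a trimer together. Lamb2 had signals of 78.8 and 92.4 in MHM + GF at 3 days, 127 and 138 at 7 days, 113 and 115 in rcCHIL3 at 3 days, and 105 and 107 at 7 days. The rcCHIL3 arrays lay between those of MHM + GF at 3 and at 7 days. Lamb2 was higher with rcCHIL3 at 3 days (0.34, adjusted p = 0.00877) and lower at 7 days (-0.27, adjusted p = 0.0308). The first call was lost without replicate 1 of MHM + GF or replicate 2 of rcCHIL3 at 3 days (adjusted p = 0.0782 and 0.0504), and the second without replicate 2 of MHM + GF or either rcCHIL3 array at 7 days (adjusted p = 0.156, 0.0993 and 0.0903). At the deposited scale neither passed (adjusted p = 0.118 and 0.342). Lama5 and Lamc1, named after their values were seen, passed the test at neither day. Lama5 differed by -0.23 at 3 days and 0.19 at 7 days and Lamc1 by 0.14 and 0.03, and Lama5 fell with time in MHM + GF (-0.57, adjusted p = 0.000608).

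**Figure D3:**
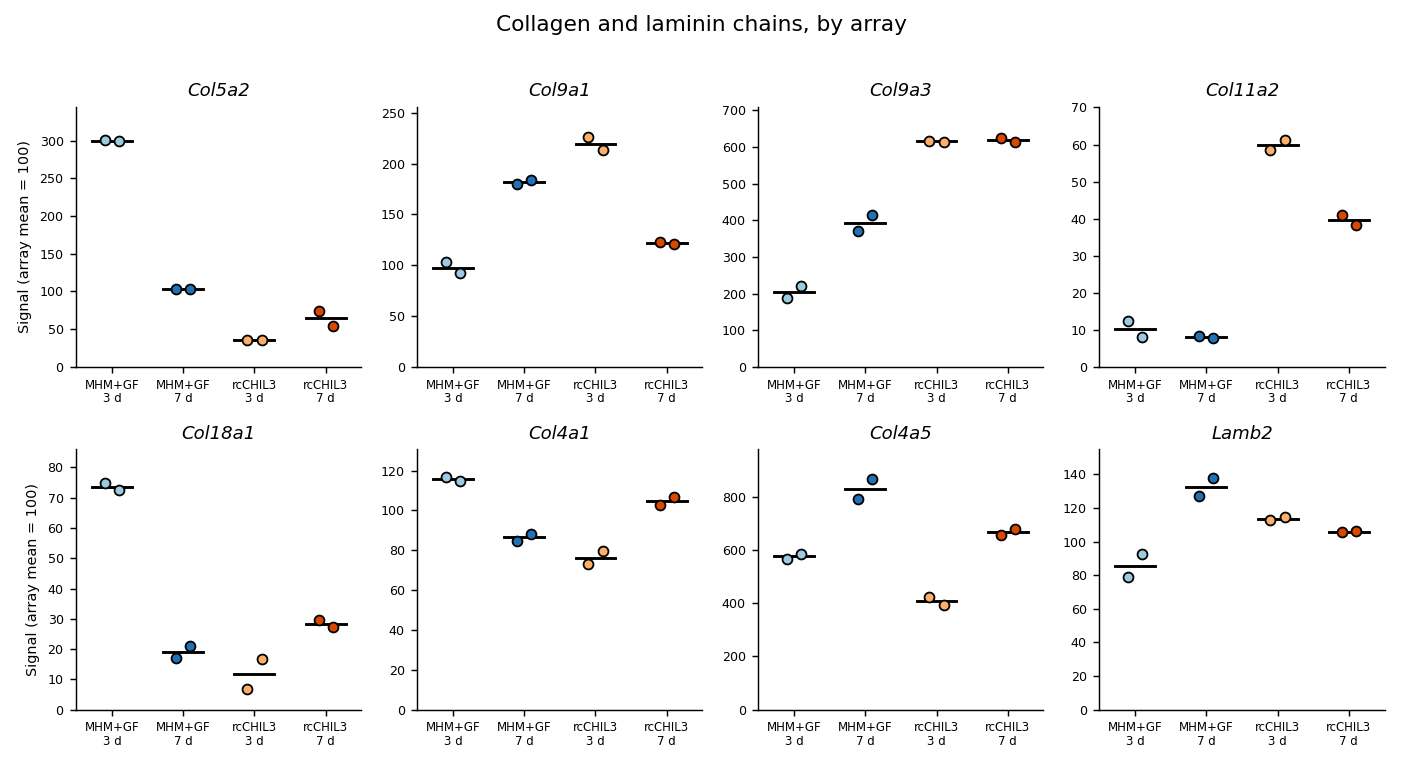
Signal on each array (mean of the array = 100, linear axes from 0) of 7 collagen chains and Lamb2 in the 4 groups. Points are single arrays, 2 in each group, and lines are group means. Col5a2 and Col18a1 are highest in MHM + GF at 3 days, Col11a2 is near the floor in MHM + GF, and Col9a1 changes in opposite directions with time in the 2 media.

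Integrin alpha v pairs with beta 1, beta 3, beta 5, beta 6 or beta 8 to bind fibronectin, vitronectin and latent TGF-beta. The Itgav signal was 1286 and 1106 in MHM + GF at 3 days, 709 and 774 at 7 days, 679 and 705 in rcCHIL3 at 3 days, and 1012 and 1018 at 7 days. It was lower with rcCHIL3 at 3 days and higher at 7 days, without overlap, by -0.77 ± 0.08 and 0.44 ± 0.08 (adjusted p = 7.58e-06 and 0.000792). Itgav thus had the same 4 directions as Fn1, a fall with time in MHM + GF (-0.67) and a rise in rcCHIL3 (0.54). Of its partners, Itgb3 never exceeded a signal of 2.00. Itgb8 had signals of 1267 and 1187, then 1135 and 1105, in MHM + GF and 1071 and 1134, then 1434 and 1443, in rcCHIL3. It was highest in rcCHIL3 at 7 days, by 0.36 ± 0.06 over MHM + GF (adjusted p = 0.000685), while the difference at 3 days was -0.15 (adjusted p = 0.0555). Itgb5 had signals of 282 and 301, then 358 and 419, in MHM + GF and 174 and 156, then 280.5 and 277, in rcCHIL3. In contrast with Itgav it was lower with rcCHIL3 at both days (-0.75 and -0.45, adjusted p = 2.6e-05 and 0.00169). Its brightest probe set is of a kind that can cross-hybridise, and the 3 other probe sets of Itgb5 were lower at both days too.

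Integrins alpha 6 beta 1 and alpha 7 beta 1 are laminin receptors. The Itga6 signal was 457 and 454 in MHM + GF at 3 days, 235 and 229.8 at 7 days, 366 and 359.6 in rcCHIL3 at 3 days, and 293 and 288 at 7 days. The Itgb1 signal was 308 and 326, then 154 and 129, in MHM + GF and 245 and 218, then 174 and 178, in rcCHIL3. Both subunits had the order MHM + GF at 3 days, rcCHIL3 at 3 days, rcCHIL3 at 7 days and MHM + GF at 7 days, from high to low and without overlap. Itga6 was lower with rcCHIL3 at 3 days (-0.31 ± 0.06, adjusted p = 0.00163) and higher at 7 days (0.30 ± 0.06, adjusted p = 0.00301). Itgb1 was lower at 3 days (-0.42 ± 0.09, adjusted p = 0.00236) and higher at 7 days (0.28 ± 0.09, adjusted p = 0.0259). The Itgb1 call at 7 days was lost without replicate 2 of MHM + GF (0.17, adjusted p = 0.194) or without either rcCHIL3 array (adjusted p = 0.0716 and 0.103). The fall with time in rcCHIL3 (-0.30 for Itga6 and -0.36 for Itgb1) did not pass at the deposited scale (adjusted p = 0.262 and 0.152), and that of Itgb1 was also lost without replicate 1 of rcCHIL3 at 3 or 7 days (adjusted p = 0.0978 and 0.0518).

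Itga7 had signals of 161 and 159 in MHM + GF at 3 days, 101 and 107 at 7 days, 262 and 251 in rcCHIL3 at 3 days, and 165 and 138 at 7 days. At each day both rcCHIL3 arrays lay above both MHM + GF arrays, by 0.62 ± 0.09 at 3 days and 0.47 ± 0.09 at 7 days (adjusted p = 0.000144 and 0.00156). It was the single alpha subunit higher at both days. Itga5, which pairs with beta 1 as the classical fibronectin receptor, never exceeded a signal of 18.0, and Itgb4, the other partner of alpha 6, never exceeded 6.21.

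**Figure D4:**
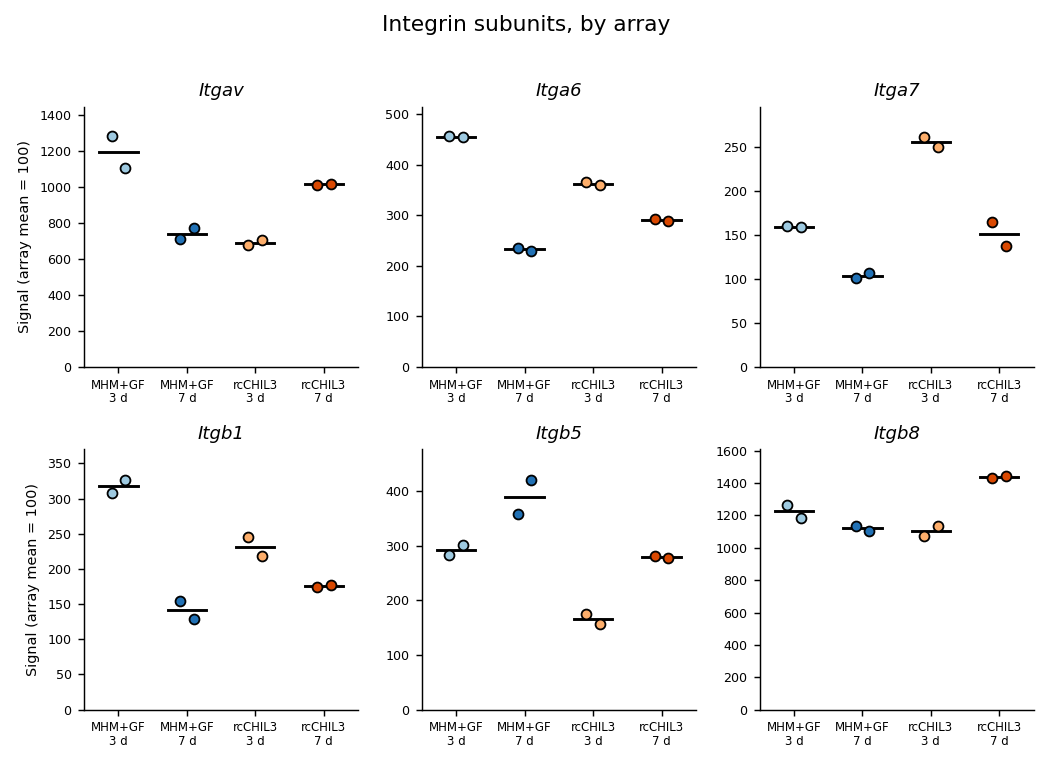
Signal on each array (mean of the array = 100, linear axes from 0) of the 6 measured integrin subunits in the 4 groups. Points are single arrays, 2 in each group, and lines are group means. Itgav falls with time in MHM + GF and rises in rcCHIL3, Itga6 and Itgb1 fall in both media, and Itgb5 is lower in rcCHIL3 at both days.

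The 58 genes under the filter were 12 fibrillar and associated collagen chains, 6 basement membrane collagen chains, all 13 other collagen chains, 7 laminin chains, 13 alpha and 6 beta integrin subunits, and Nid2. Of these 42 never exceeded a signal of 20. Closest below the filter by their second highest array were Itga2b (48.0), Col5a3 (44.6) and Col12a1 (42.1), and closest above it Col11a2 (58.5), Col20a1 (68.5) and Col18a1 (72.6). When the filter was left out, 3 of the 58 were higher and 9 lower with rcCHIL3 at 3 days, and 4 were higher and 3 lower at 7 days. Over all 45037 probe sets of that fit 19.3% passed in either direction at 3 days and 15.2% at 7 days, so the members' counts were near the background. Among these, chosen after their values were seen, Lamb1 had signals of 38.6 and 31.6 in MHM + GF at 3 days, 10.7 and 11.4 at 7 days, and between 3.60 and 5.71 on the rcCHIL3 arrays (-1.20 at 3 days, adjusted p = 6.4e-05). Lama4 had 19.7 and 18.3 in MHM + GF at 3 days and at most 3.23 elsewhere (-0.88, adjusted p = 6.42e-05). Both are chains of vessel-type laminins. Col5a1, the partner of Col5a2 in type V collagen, had signals of 32.0 and 34.2, then 8.21 and 14.9, in MHM + GF and 10.99 and 13.8, then 38.1 and 35.0, in rcCHIL3. It was lower with rcCHIL3 at 3 days (-0.71, adjusted p = 0.00482) and higher at 7 days (0.85, adjusted p = 0.00293).

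With time in MHM + GF 9 of the 26 genes rose and 12 fell (31.1% and 26.0% of all probe sets, 57.1% in all), and in rcCHIL3 10 rose and 9 fell (18.0% and 17.9%, 35.8% in all). At the deposited scale 11 rose and 5 fell in rcCHIL3. Col5a2, Col4a1, Col18a1, Fn1 and Itgav fell in MHM + GF and rose in rcCHIL3. Col18a1 and Col11a1 were kept through MHM + GF at 3 days alone, so the filter favoured their fall in that medium. Col9a1 and Col16a1 rose in MHM + GF and fell in rcCHIL3, although both Col16a1 calls were lost without single arrays (adjusted p from 0.065 to 0.156). Col11a1, Itga6, Itga7, Itgb1, Tnc and Vcan fell in both, and Col27a1, Col4a5, Efemp1 and Itgb5 rose in both at their brightest probe sets. The rise in MHM + GF did not pass at any of the 3 further probe sets of Itgb5 (0.17, 0.10 and 0.08, adjusted p = 0.0541, 0.274 and 0.475) or at the second one of Col4a5 (0.22, adjusted p = 0.0736), nor did that in rcCHIL3 at the second one of Col27a1 (0.30, adjusted p = 0.0876). The fall of Itga6 in rcCHIL3 did not pass at its second probe set (-0.19, adjusted p = 0.208). In rcCHIL3 the Col11a1 call was lost without replicate 1 at 3 days (adjusted p = 0.0536), and the Col27a1 call without either array at 3 days or replicate 1 at 7 days (0.124, 0.0596 and 0.185). Between 3 and 7 days the effect of rcCHIL3 moved upward in 9 genes and downward in 6 past the threshold, against 18.7% and 22.7% of all probe sets (41.4% in all). At the deposited scale, which moved the median of all probe sets in this comparison from -0.04 to 0.12, 10 were positive and 4 negative. By mean signal the highest group was MHM + GF at 3 days for 10 genes, MHM + GF at 7 days for 6, rcCHIL3 at 3 days for 6 and rcCHIL3 at 7 days for 4.

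**Figure D5:**
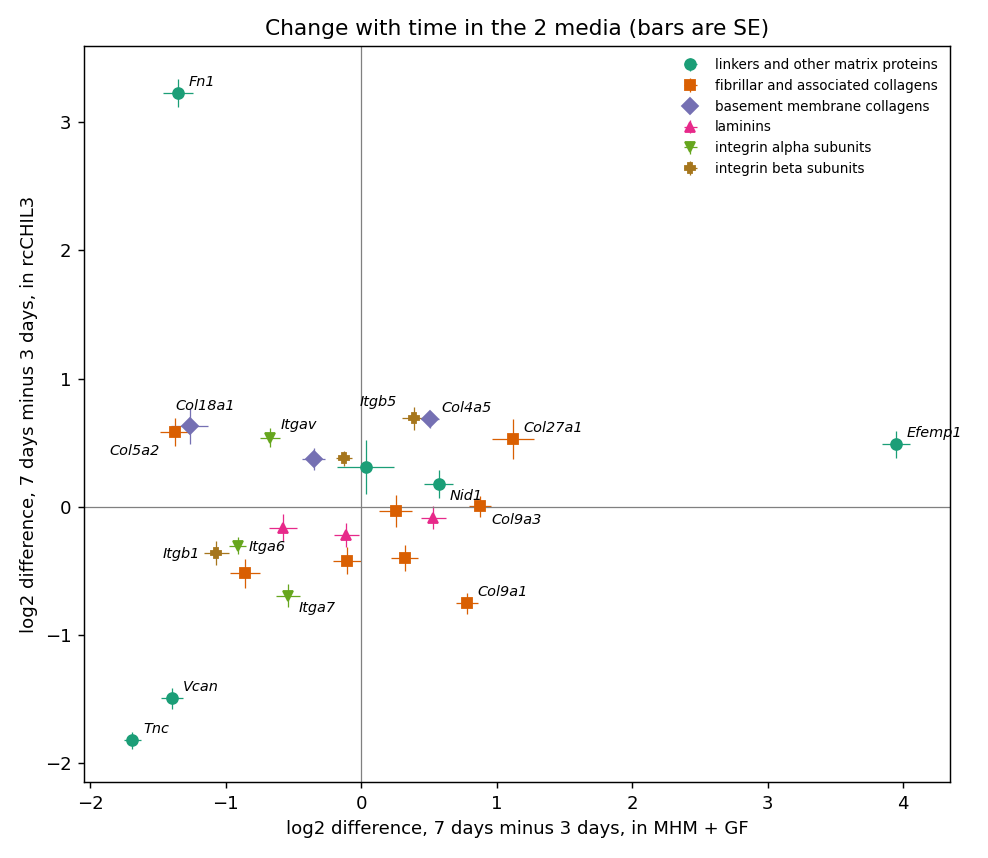
Change from 3 to 7 days in MHM + GF (horizontal) and in rcCHIL3 (vertical) for the 26 measured genes, on the log2(signal + 20) scale. Symbols mark the role of the gene, and bars are standard errors, from the fit of all 8 arrays, of contrasts between 2 and 2 arrays. Fn1 lies at -1.35 and 3.22, Efemp1 at 3.95 and 0.49, and Tnc at -1.69 and -1.82.

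Enzymes that mature collagen were read as a list of 28 genes, 18 of which were measured. With rcCHIL3 6 rose and 7 fell relative to MHM + GF at 3 days, and 7 rose and none fell at 7 days. Over all probe sets 50.2% passed at 3 days (27.7% higher, 22.5% lower) and 44.0% at 7 days (21.3% and 22.7%). At 7 days the list's 7 of 18 were no larger a share than the 44.0% of all probe sets that passed in total. All 7 were higher, however, where 21.3% of all probe sets were. The median difference was -0.01 at 3 days and 0.18 at 7 days. P4ha1 and P4ha2 encode catalytic subunits of prolyl 4-hydroxylase, which stabilises the triple helix, and Plod2 a lysyl hydroxylase that sets the type of cross-link. The P4ha1 signal was 329 and 363 in MHM + GF at 3 days, 81.7 and 64.0 at 7 days, 155 and 156 in rcCHIL3 at 3 days, and 293 and 280.2 at 7 days. As with Fn1, it was lower with rcCHIL3 at 3 days and higher at 7 days, without overlap. The differences at 3 and 7 days were -1.06 and 1.73 for P4ha1, -0.76 and 1.99 for P4ha2, and -0.95 and 1.32 for Plod2, with SE of at most 0.11. P4ha3, the third catalytic subunit, named after its values were seen, went the other way at 3 days (0.99 ± 0.14, adjusted p = 0.00012) and did not pass at 7 days (-0.21, adjusted p = 0.247). Loxl1, a lysyl oxidase-like cross-linking enzyme, was higher at both days (1.58 and 1.05), and Pcolce2, an enhancer of procollagen processing, at 3 days (1.41).

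Matrix proteases and their inhibitors numbered 24, with 12 measured. With rcCHIL3 8 rose and 1 fell at 3 days, and 6 rose and 1 fell at 7 days, with median differences of 0.33 and 0.27. Of all probe sets 27.7% were higher and 22.5% lower at 3 days, and 21.3% and 22.7% at 7 days. The signal of Mmp2, a gelatinase that cuts type IV collagen, was 16.6 and 9.20 in MHM + GF at 3 days, 54.5 and 70.6 at 7 days, 73.9 and 71.2 in rcCHIL3 at 3 days, and 230.4 and 224 at 7 days. It was higher with rcCHIL3 by 1.50 ± 0.13 at 3 days and by 1.59 ± 0.13 at 7 days (adjusted p = 1.84e-06 and 2.73e-06). Adamts1, a protease that cuts versican, was higher at both days (0.71 and 1.12), while Vcan itself was lower. The inhibitor Timp4 was the gene that fell at 3 days (-2.52), and Timp2, which takes part in the activation of pro-MMP2, was higher at 3 days (1.06) and lower at 7 days (-0.54).

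Proteoglycans and the hyaluronan matrix held 16 measured of 25 genes, 5 higher and 7 lower at 3 days and 7 higher and 6 lower at 7 days. Among all probe sets 27.7% were higher and 22.5% lower at 3 days, and 21.3% and 22.7% at 7 days. The hyaluronan receptor Cd44 was higher with rcCHIL3 at both days (1.55 and 0.82), and Tnr, tenascin-R of perineuronal nets, at 3 days (1.14). Sdc3, a cell surface heparan sulphate proteoglycan, was lower at both days (-2.04 and -0.78), as was Ncan (-0.62 and -1.46), a chondroitin sulphate proteoglycan related to versican. The glypican Gpc6 was higher at 7 days (1.11).

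Of 24 matricellular and secreted matrix proteins 13 were measured, with 4 higher and 5 lower at 3 days and 1 higher and 6 lower at 7 days. The shares of all probe sets were 27.7% higher and 22.5% lower at 3 days, and 21.3% and 22.7% at 7 days. Fbln2, encoding the fibronectin- and laminin-binding fibulin-2, had signals of 592 and 668 in MHM + GF at 3 days and at most 97.9 elsewhere, a difference of -2.51 ± 0.11 at 3 days (adjusted p = 6.55e-09). Fbln1 was lower at 3 days too (-1.10). Efemp1, of the same fibulin family, was higher at that time. Matn2 was higher at both days (1.36 and 0.65) and Thbs2, thrombospondin-2, at 3 days (1.33). At 7 days Mfge8, a ligand of alpha v integrins, and Sparc, a collagen-binding glycoprotein, were lower (-1.16 and -0.67).

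Adaptors that join integrins to actin were measured for 17 of 20 genes, and 10 were higher and 3 lower with rcCHIL3 at 3 days, with a median difference of 0.45, where 50.2% of all probe sets passed in either direction. The counts at 7 days were 1 higher and 4 lower (median -0.01), where 44.0% of all probe sets passed in either direction. The effect changed between the days for 12 of the 17, 2 upward and 10 downward, against 41.4% of all probe sets. Parvb (beta-parvin) and Pxn (paxillin) were higher at 3 days by 1.19 and 1.07, and Src and Parva (alpha-parvin) lower by 1.04 and 0.67. At 7 days Ilk, the integrin-linked pseudokinase, was higher (0.32), and Actn1 (alpha-actinin 1) and Tln1 (talin 1) were lower (-0.51 and -0.42). Other receptors for matrix were measured for 13 of 16 genes, with 5 higher and 5 lower at 3 days and 2 higher and 2 lower at 7 days. In either direction 50.2% of all probe sets passed at 3 days and 44.0% at 7 days. At 3 days Utrn (utrophin) and the integrin-associated tetraspanin Cd151 were higher (0.70 and 0.60), and Rpsa, the laminin receptor that is also a ribosomal protein, and Dmd (dystrophin) were lower (-0.46 and -0.43).

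Of the 26 genes 11 had further probe sets over the filter, 14 in all. In 56 comparisons in which the brightest probe set passed the test, 45 of the further ones gave the same call and none the opposite one. Vcan at 7 days was among those without the same call, with -0.07 ± 0.14 at one of its 2 further probe sets.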

How the data were processed

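Total RNA of mouse neurospheres was hybridised to Affymetrix whole-genome mouse arrays, 2 for each of 4 groups. The authors made the deposited intensity values, linear signals for 45101 probe sets, with the MAS5 algorithm (GeneChip Operating Software in the methods, Affymetrix Expression Console 1.1 in the labels). Array means of the deposited values ran from 267.3 to 316.6, so each array was rescaled here to a mean of 100. MAS5 signals are not corrected between arrays beyond this scale, and low signals are noisy, hence the filter and the offset of 20.

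Genes were named from the platform annotation, in which 34958 probe sets have 1 symbol, 932 several and 9211 none. All 84 members matched RefSeq symbols. Probe sets with a signal of 50 or more on at least 2 of 8 arrays were kept, without control probe sets. For log2(signal + 20), limma 3.58.1 (run in R 4.3.3) estimated 1 mean per group in a single model of all 8 arrays, leaving 4 residual degrees of freedom, and moderated the variances by eBayes with an intensity trend. Tests were two-sided, with Benjamini-Hochberg adjustment over all 15679 kept probe sets. The scripts were checked on simulated data. Members under the filter were read from the same fit over all probe sets. Tables were written with pandas 2.3.3 and numpy 2.4.6 under Python 3.11.15, and plots with matplotlib 3.10.9.

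Members and gene lists were chosen with earlier results of these data known. Values on every array are given for the 7 individually named matrix genes and, in each class, for up to 4 measured members with the largest differences between media past the threshold. They are also given for members with opposite differences of at least 0.5 (log2) at both days. From each gene list at most the 2 largest differences in each direction are named. The p-values rest on the spread between the 2 experiments of a group, pooled over the 4 groups and moderated over all kept probe sets. They do not measure the spread of the 2 compared groups alone, and the number of arrays limits the precision. Loxl2, Adamts2, Adamts14, Mmp15, Serpine2, Spp1, Fbn1, Efemp2, Ptk2, Fermt1 and Gpr56 were not analysed here, and some other genes of the lists are not reported here. The markers of ependymal and choroid plexus cells (4 of 5 measured) summed to 403 to 592 and 743 to 1015 in MHM + GF at 3 and 7 days, and to 495 to 836 and 970 to 1155 in rcCHIL3. Alternatives were another offset, a floor, other filters, quantile normalization, centring on the median, the deposited scale, groups compared alone, a replicate block, other variance priors, the test given in the methods, the mean of all probe sets of a gene and leaving out each array.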

Additional observations from a re-analysis of the deposited data

Results flagged for a closer look

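For 15 of the 26 measured genes the rcCHIL3 effect at 7 days differed from that at 3 days by the interaction term of the limma fit (difference of log2 differences, 7 minus 3 days). Positive values were those of Fn1 (4.57), Col5a2 (1.96), Col18a1 (1.89), Itgav (1.21), Col4a1 (0.72), Itgb1 (0.71), Itga6 (0.61), Itgb8 (0.51) and Lama5 (0.41). Col18a1 was kept through MHM + GF at 3 days alone, so the filter favoured its positive value. Negative values were those of Efemp1 (-3.46), Col9a1 (-1.53), Col9a3 (-0.87), Col16a1 (-0.72), Lamb2 (-0.62) and Col27a1 (-0.59). Over all probe sets 41.4% passed this test. For Fn1, Itgav, Itga6 and Itgb1 the effect went from lower to higher, for Efemp1, Col9a1, Col16a1 and Lamb2 from higher to lower, and for Col5a2 and Col9a3 it became smaller in the same direction.

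The value for Col27a1 (adjusted p = 0.0497) no longer passed without single arrays of any of the 4 groups (adjusted p up to 0.19), and its second probe set gave -0.10 (adjusted p = 0.686). That for Lama5 (adjusted p = 0.0403) was lost without any one of 5 of the 8 arrays (adjusted p from 0.0762 to 0.124), and that for Lamb2 at the deposited scale (-0.53, adjusted p = 0.0712). Among the integrin partners of alpha v, the change was 0.30 for Itgb5 at its brightest probe set (adjusted p = 0.0702) and 0.46, 0.42 and 0.37 at its 3 other probe sets, which passed the test.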

How the results depend on the processing

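Of 130 tests (26 genes in 5 comparisons) 96 passed the threshold, and none of these changed sign under any alternative. Counts of higher and lower genes stayed within 1.5 times the reported ones, with these exceptions. Without a filter on low signals 21 genes were lower at 3 days, and 17 had a positive change of the rcCHIL3 effect, since more genes were tested. At the deposited scale 6 were lower at 7 days and 5 fell with time in rcCHIL3. The test given in the methods, adjusted, called 5 higher and 4 lower at 3 days, 0 and 0 at 7 days, 2 higher with time in MHM + GF, and 0 and 0 with time in rcCHIL3. Unadjusted it called 8 higher and 7 lower at 7 days, and 7 and 9 with time in rcCHIL3. It uses the 2 arrays of each group alone.

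When single arrays were left out, 8 to 9 genes were higher and 12 to 13 lower at 3 days, 8 to 10 and 7 to 10 at 7 days, 8 to 9 and 12 to 12 with time in MHM + GF, and 8 to 10 and 7 to 9 with time in rcCHIL3. For the change of the effect the ranges were 8 to 10 and 5 to 7. Values that had not passed the test and changed sign were those of Hspg2 at 3 days (-0.61 to 0.029 when single arrays were left out) and at 7 days (0.0058 with quantile normalization, 0.074 at the deposited scale, and -0.29 to 0.26 when arrays were left out). The others were Col9a3 with time in rcCHIL3 (-0.0064 with centring on the median, -0.073 as the mean of its probe sets, -0.0061 to 0.018 without single arrays), the change of effect of Tnc (0.017 at the deposited scale) and that of Vcan (0.016 at the deposited scale, 0.15 as the mean of its probe sets). Arrays of the same number did not deviate together (r from -0.011 to 0.102), so the numbers were not taken to pair samples. With the replicate number as a block 9 genes were higher and 14 lower at 3 days, and 11 and 10 at 7 days. Differences in low signals and between 2 arrays of a group, as for Hspg2, limit what could be detected.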
